A study of Mus musculus with 6 samples.

Results

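The replication-dependent histone genes of the Hist1, Hist2, Hist3 and Hist4 clusters were examined in spleen RNA of autoimmune-prone mice with and without the interferon-γ receptor. Members were all loci of the deposited table whose gene name begins with Hist1, Hist2, Hist3 or Hist4 followed by h, with 1 entry per locus. This gave 71 of the 44794 loci that carried a gene name, out of 426574 loci in all. They comprised 6 loci of the linker histone H1, 20 of H2A, 20 of H2B, 11 of H3, 13 of H4 and 1 locus that joined an H2A and an H3 gene.

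Bulk RNA of 6 spleen samples was sequenced. In 3 samples the mice were B6.Sle1b, C57BL/6 mice with the lupus susceptibility interval Sle1b, labelled as autoimmune-prone controls. The other 3 were Sle1b.IFNγR-/-, which carry Sle1b and lack the interferon-γ receptor. Mice of both groups received imiquimod, which activates the RNA-sensing receptor TLR7, on 3 occasions per week over 4 weeks, so no untreated spleen and no spleen without Sle1b was compared. The comparison asks what the loss of interferon-γ signalling changes in spleens in which TLR7 drives B cells towards germinal centres and antibody-forming cells. The labels give no age, do not say which receptor subunit was deleted, and do not state whether each sample came from its own mouse; p-values here describe only sample-to-sample spread. A change in a whole-spleen level can come from the number of cells of a type or from RNA per cell, and these cannot be told apart here.

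Replication-dependent histone genes supply the histones that package newly copied DNA, and their mRNAs accumulate in S phase and are degraded when DNA synthesis stops. They lie in clusters of many near-identical copies without introns. Their mRNAs end in a conserved stem-loop rather than a poly(A) tail; the stem-loop is bound by SLBP, which acts in the processing, translation and decay of the mRNA, while NPAT activates transcription of the clusters in late G1 and S phase. In the spleen, dividing germinal centre B cells, plasmablasts and red-cell and granulocyte precursors are the cells in which such genes would be active.

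The stem-loop itself is shown first because it defines the class and because where it stands in the annotated transcript differed between members. The motif searched, on the transcript strand, was GGC, any base, CTTTT, any base, AG, any pair of bases and CC. It was present in transcripts of 42 of 67 protein-coding member genes in GENCODE mouse release 21, and in 49 genes in all, members included. By transcript, it was present in 56 of 58797 protein-coding transcripts of all genes (0.0952%), and on the opposite strand in 2 transcripts. Of the member loci, 25 carried the letters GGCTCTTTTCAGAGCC, 7 carried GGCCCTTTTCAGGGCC, 6 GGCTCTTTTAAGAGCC, 2 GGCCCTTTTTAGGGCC and 1 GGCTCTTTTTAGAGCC. One example of each kind is given from GENCODE in lower case, with the stem and loop in capitals and 5 flanking bases on each side.
Hist1h2bj: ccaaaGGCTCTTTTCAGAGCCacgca
Hist4h4: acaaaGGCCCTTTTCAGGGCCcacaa
Hist1h3c: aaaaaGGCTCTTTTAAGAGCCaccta
Hist2h4: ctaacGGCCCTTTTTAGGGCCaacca
Hist2h2ac: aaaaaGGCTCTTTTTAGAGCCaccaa
The outer letters pair with each other to form the stem: every H4 member with a match had GGCCC with GGGCC, and every matched member of the other families GGCTC with GAGCC. At 19 loci the annotated transcript ended within 60 bases after the stem-loop, and at 22 it ran on for more than 60 bases, by 2445 bases at Hist4h4 and 1643 bases at Hist3h2a. Of the 28 loci with an annotated transcript but no match, 12 had transcripts of the coding part only, in which the stem-loop cannot be found.

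The clusters were sparsely counted. The values are fragment counts per locus, scaled between libraries by quartile by the authors, and are called scaled counts below. Libraries held between 4394299 and 6349827 fragments, of which 17.5% to 27.0% were at named loci. The 71 histone loci together held 548, 266 and 286 fragments in replicates 1, 2 and 3 of B6.Sle1b, against 316, 339 and 262 in those of Sle1b.IFNγR-/-. A count of 3 fragments was worth 2.47 to 3.59 scaled counts depending on the library. B6.Sle1b replicate 1 stood apart, with the highest share at named loci. At this depth most single members cannot be compared between genotypes.

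Of the 71 loci, 12 were listed at 0 in every library (16.9%, against 21.7% of all named loci) and 17 were above 0 in every library. Mean levels were under 1 scaled count at 31 loci and between 1 and 10 at 28. Only 12 loci reached the mean of 10 required for testing, 16.9% of members against 42.9% of named loci. The loci at 0 were the H2A loci Hist1h2ad, Hist1h2ae, Hist1h2ah, the pseudogene Hist1h2al and the annotated locus of Hist1h2af, the H2B loci Hist1h2bg, Hist1h2bh, Hist1h2bk, Hist3h2ba and the pseudogene Hist3h2bb-ps, and Hist1h3a and Hist1h4n. Near-identity between copies was common in the annotated transcripts: at the median member 47.4% of all 50-base windows occurred in another member, and at 31 of 69 loci more than 50% did. The median was 58.4% for loci at 0 and 16.3% for the tested loci, and the authors' placing of reads that match several copies is not given in the sources used here. Values of single copies are therefore uncertain.

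Transcripts assembled from these reads, in addition to or in place of the annotated gene, were part of 17 of the 71 loci, against 48.7% of all named loci. These 17 held 62.1% of the summed scaled counts of all members, and 9 of the 12 tested loci were among them (86.8% of all tested named loci hold one). The names Hist1h2af and Hist2h2be each occurred at 2 loci, with 1 locus of each resting on an assembled transcript alone. The locus with the highest mean, Hist3h2a/Trim17, also covers Trim17, a gene of a ubiquitin ligase that is no histone, and its reads cannot be divided between the genes. The remaining 54 loci rested on annotated transcripts only, and are given separately below because no assembled transcript enters their values. Reads that match several copies leave these values uncertain as well.

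The summed level of the clusters did not separate the genotypes. It was 558, 218 and 268 scaled counts in B6.Sle1b against 276, 381 and 314 in Sle1b.IFNγR-/-, with means of 348 ± 184 and 324 ± 53.4 (SD, n = 3 each). The groups overlapped, and B6.Sle1b held both the highest and the lowest library. The difference of the mean log2 sums, Sle1b.IFNγR-/- minus B6.Sle1b, was 0.00, and 0.40 without B6.Sle1b replicate 1, the highest library.

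**Figure D1:**
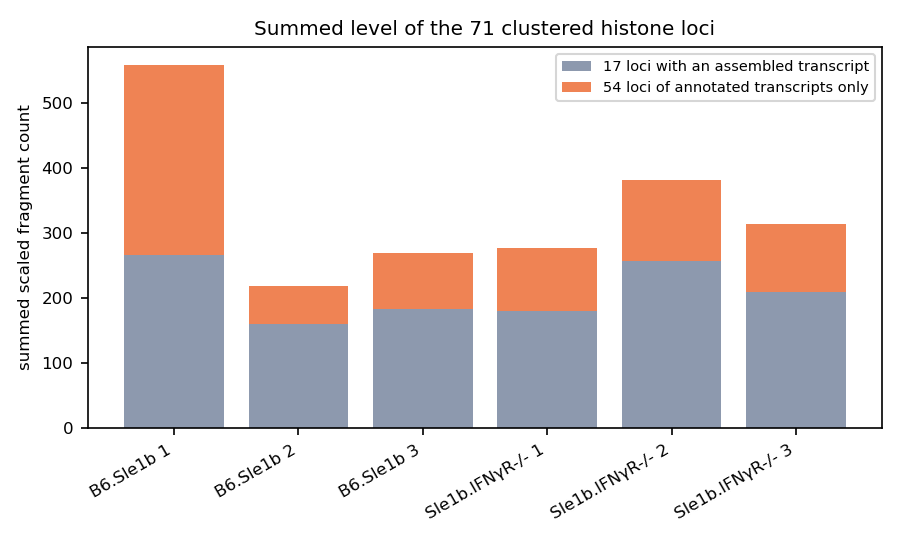
Summed scaled fragment count (vertical axis) of the clustered histone loci in each of the 6 libraries (horizontal axis), divided into the 17 loci with an assembled transcript and the 54 loci of annotated transcripts only. B6.Sle1b replicate 1 reaches 558, the other 5 libraries lie between 218 and 381, and the excess of that library lies mostly in the annotated-only part (292 against at most 125).

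By family, the summed levels of the genotypes overlapped in every case. H1, the linker histones that bind between nucleosomes, summed to 11.3 ± 7.82 scaled counts in B6.Sle1b against 12.5 ± 8.94 in Sle1b.IFNγR-/-. H2A summed to 87.5 ± 44.4 and 102 ± 23.7, and H2B, its partner in the nucleosome, to 123 ± 69.9 and 103 ± 28.0. The H2A sums include Hist3h2a/Trim17, with means of 39.3 and 61.7, whose reads cannot be divided between its genes. The H2A differences below are therefore not those of histone genes alone. H3 summed to 44.4 ± 14.6 and 38.0 ± 7.18, and H4, its partner, to 66.6 ± 46.8 and 62.0 ± 12.5 (SD, n = 3 each). In each of the 5 families the SD in B6.Sle1b was larger than the difference of the means. On the log2 scale the differences for H1, H2A, H2B, H3 and H4 were 0.18, 0.31, -0.14, -0.18 and 0.09 with all libraries and 0.66, 0.69, 0.28, 0.03 and 0.62 without B6.Sle1b replicate 1.

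Among the 12 tested loci, 6 had a negative and 6 a positive log2 difference, and 0 passed an adjusted p of 0.05 in limma (0% of 19227 tested named loci did). None had an unadjusted p under 0.05 (3.1% of all tested loci did, 2.08% with a negative and 1.02% with a positive difference). None had groups that did not overlap (8.7% of all tested loci did, 5.19% with lower and 3.51% with higher receptor-deficient values). The median log2 difference of the 12 was -0.05, against -0.08 over all tested loci, of which 58.1% were negative. The standard errors of the members ran from 0.35 to 1.27 with a median of 0.57, against a median of 0.43 over all tested loci, so only large differences could have passed. The smallest adjusted p of a member was 0.9998 in limma.

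**Figure D2:**
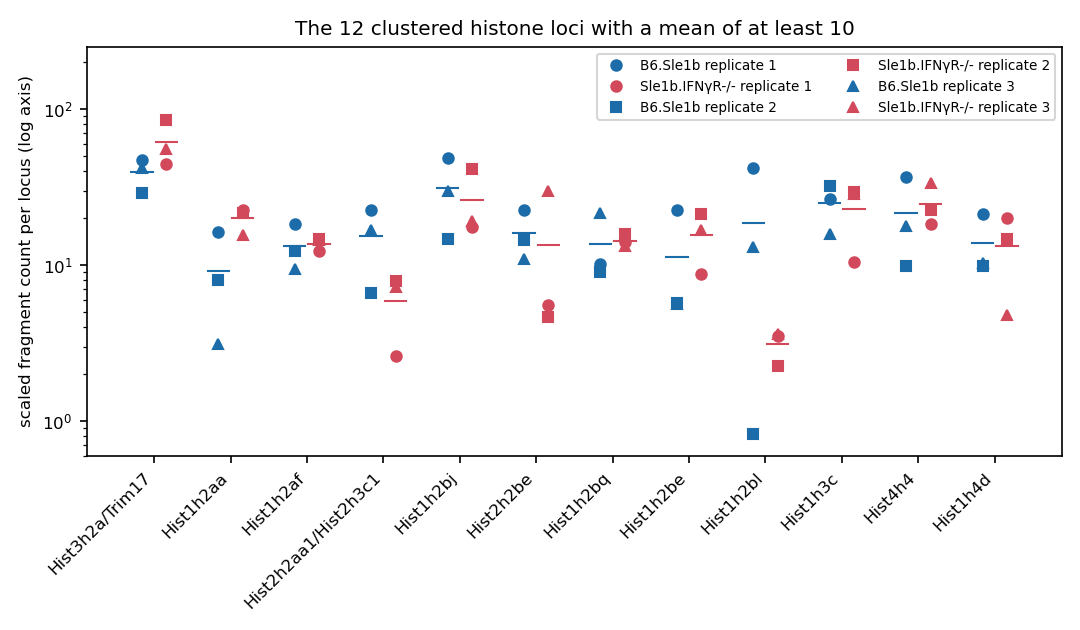
Scaled fragment count per locus (vertical log axis) of the 12 loci with a mean of at least 10 (horizontal axis), with 1 point per library, B6.Sle1b in blue and Sle1b.IFNγR-/- in red, the marker shape giving the replicate and the bar the group mean. At every locus the points of the groups overlap; the widest spread within a group is Hist1h2bl in B6.Sle1b, from 0.822 to 41.8.

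Of the tested H2A loci, Hist1h2aa, the gene of a testis-enriched H2A, had the smallest p. It stood at 16.3, 7.99 and 3.11 scaled counts in B6.Sle1b against 22.4, 21.7 and 15.6 in Sle1b.IFNγR-/-. The groups overlapped only through B6.Sle1b replicate 1, which lay just above the lowest receptor-deficient library. The log2 difference was 1.26 (95% interval -0.07 to 2.59), with an unadjusted p of 0.061 and an adjusted p of 0.9998 in limma. This locus includes an assembled transcript, as does its divergent neighbour Hist1h2ba, the testis-enriched H2B. Hist1h2ba was above 0 only in B6.Sle1b replicate 3, at 1.87. Unlike most values, those of Hist1h2aa were not all whole fragments. They were 9.72 and 3.32 in B6.Sle1b replicates 2 and 3, and 25.61, 19.33 and 13.02 in Sle1b.IFNγR-/-. Both Hist2h2be loci also held values that were not whole fragments. The reason was not tested.

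Hist3h2a/Trim17 stood at 46.9, 28.8 and 42.2 in B6.Sle1b against 44.6, 85.4 and 55.1 in Sle1b.IFNγR-/-, a mean of 39.3 ± 9.39 against 61.7 ± 21.2 (SD, n = 3 each) and a log2 difference of 0.61 (95% interval -0.15 to 1.37). The highest value came from Sle1b.IFNγR-/- replicate 2. The assembled Hist1h2af locus was nearly level, at 18.3, 12.3 and 9.37 against 12.2, 14.6 and 14.4, with a log2 difference of 0.08. At Hist2h2aa1/Hist2h3c1, which joins an H2A and an H3 gene of the chromosome 3 cluster, values were 22.4, 6.58 and 16.9 against 2.62, 7.87 and 7.19. The groups overlapped through B6.Sle1b replicate 2, and the log2 difference of -1.197 (95% interval -2.84 to 0.45) did not pass the test. Hist1h2ai and Hist1h2ak, H2A genes too low to test, stood at 19.4, 0.822 and 2.81 against 2.62, 0 and 0, and at 11.2, 5.75 and 5.62 against 7.00, 2.25 and 0.

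H2B held 5 of the tested loci. Hist1h2bj, whose locus includes an assembled transcript, stood at 48.9, 14.8 and 29.999 scaled counts in B6.Sle1b against 17.5, 41.6 and 19.2 in Sle1b.IFNγR-/-, with a log2 difference of -0.21, which became 0.18 without B6.Sle1b replicate 1. Hist1h2bl stood at 41.8, 0.822 and 13.1 against 3.50, 2.25 and 3.59. Its B6.Sle1b libraries were both above and below all 3 receptor-deficient ones, and 64.2% of its total came from B6.Sle1b replicate 1. The means were 18.6 ± 21.02 and 3.11 ± 0.751 (SD, n = 3 each), and the log2 difference of -1.35 had a 95% interval of -4.09 to 1.40 and became -0.32 without that library. The tested Hist2h2be locus, in the chromosome 3 cluster, stood at 22.4, 14.5 and 10.9 against 5.51, 4.65 and 29.9. The receptor-deficient group thus held both the lowest and the highest library, and the log2 difference was -0.64. The second locus of this name, resting on an assembled transcript alone, stood at 0, 2.79 and 9.70 against 4.11, 5.47 and 0. The difference of -0.64 therefore covers only a part of what is counted under this gene name.

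Hist1h2be stood at 22.4, 5.75 and 5.62 against 8.74, 21.4 and 16.8, with a log2 difference of 0.63. Hist1h2bq stood at 10.2, 9.04 and 21.6 against 14.0, 15.7 and 13.2, with a log2 difference of 0.16, and the receptor-deficient values lay inside the B6.Sle1b range. Nearly all of the 50-base windows of Hist1h2bq (97.3%) recur in other members. Hist1h2bn, with a mean under 10, stood at 25.5, 6.58 and 1.87 against 8.74, 6.74 and 1.198, again with its highest value in B6.Sle1b replicate 1.

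Among H3 loci only Hist1h3c was tested. It stood at 26.5, 32.1 and 15.9 scaled counts in B6.Sle1b against 10.5, 29.2 and 28.7 in Sle1b.IFNγR-/-, with a log2 difference of -0.19 and overlapping groups. The next H3 loci were Hist1h3f at 6.11, 9.87 and 5.62 against 0.874, 6.74 and 0, Hist1h3h at 14.3, 0 and 0.937 against 3.50, 6.74 and 2.40, and Hist1h3e at 4.08, 3.29 and 1.87 against 11.4, 0 and 0. Each of these 3 rests on a few fragments per library. In H4, Hist4h4 on chromosome 6 (chr6:136801553-136804415, minus strand, GRCm38) lies alone, away from the clusters. It stood at 36.7, 9.87 and 17.8 against 18.4, 22.5 and 33.5, with a log2 difference of 0.34 and overlapping groups. Hist1h4d stood at 21.4, 9.87 and 10.3 against 20.1, 14.6 and 4.79, a log2 difference of -0.18, which became 0.16 without B6.Sle1b replicate 1. Hist1h4c stood at 13.2, 5.75 and 0.937 against 11.4, 2.25 and 2.40, and Hist2h4 at 4.08, 5.75 and 9.37 against 7.87, 4.50 and 0.

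No H1 locus was tested. Hist1h1c, one of the somatic linker histones, stood at 2.04, 6.58 and 3.75 scaled counts in B6.Sle1b against 1.75, 3.37 and 16.8 in Sle1b.IFNγR-/-. Hist1h1e stood at 6.11, 1.64 and 0 against 1.75, 0 and 3.59, Hist1h1b at 8.15, 0 and 0 against 0.874, 2.25 and 0, and Hist1h1a at 3.06, 2.47 and 0 against 0, 0 and 2.40. Hist1h1d and the testis-specific Hist1h1t were each above 0 in 1 library only, Sle1b.IFNγR-/- replicate 1 at 3.50 and replicate 2 at 1.12.

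The groups did not overlap at 2 untested loci with means under 10, both chosen for mention after their values were seen. Of the 15865 named loci with a mean above 0 and under 10, 7.19% had groups that did not overlap, and of the members in that range 2 of 47. Hist1h2bp stood at 5.09, 1.64 and 0.937 in B6.Sle1b and at 0 in all 3 Sle1b.IFNγR-/- libraries. Hist1h4a was at 0 in all 3 B6.Sle1b libraries and stood at 2.62, 5.62 and 2.40 in Sle1b.IFNγR-/-. The directions are opposite, and in each the group above 0 includes libraries at or under the value of 3 fragments, so no fold is given.

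**Figure D3:**
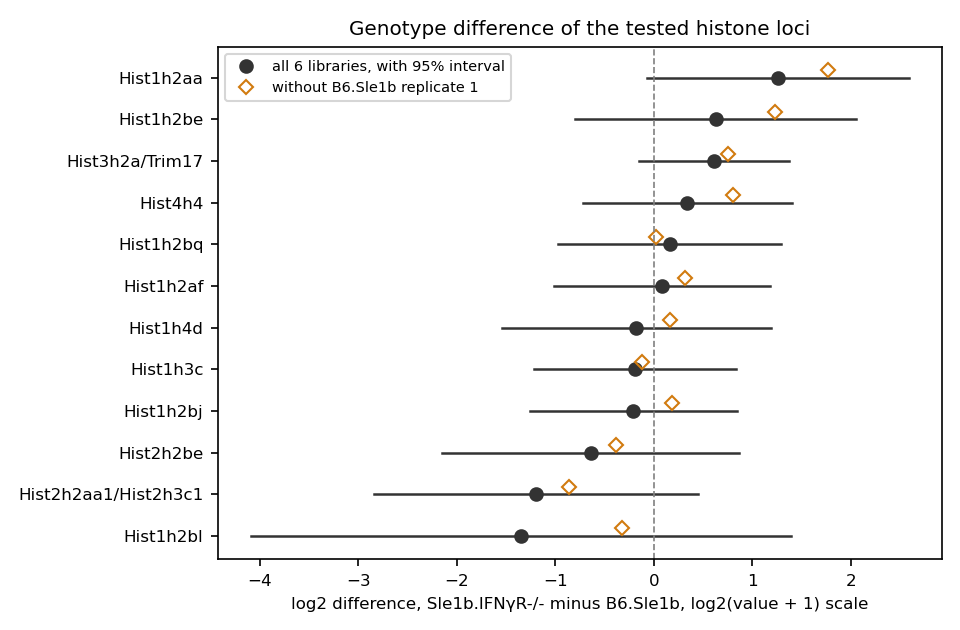
Log2 difference, Sle1b.IFNγR-/- minus B6.Sle1b, on the log2(value + 1) scale (horizontal axis) of the 12 tested loci (vertical axis), with the 95% interval from limma over all 6 libraries and, as open diamonds, the difference without B6.Sle1b replicate 1. All 12 intervals include 0; without that library the diamonds move to higher values at all loci except Hist1h2bq.

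In scaled counts, the most visible pattern in these genes lay in a single library, B6.Sle1b replicate 1. Its scaling factor from the total of named loci was also the highest, at 1.44 against 0.85 to 0.97 elsewhere. Divided by that total, on one common scale, the summed histone level was 360, 239 and 259 in B6.Sle1b. In Sle1b.IFNγR-/- it was 276, 366 and 303, so replicate 1 of B6.Sle1b was then not the highest. The part of the rise at named loci in the patterns below was not tested. Of 59 member loci with 1 highest library, 30 were highest in B6.Sle1b replicate 1, and the other 5 libraries were highest at 3 to 8 loci each. Over all named loci above 0 that library was the highest at 30.1%, and over all tested loci at 37.9%. Among the 47 members with a mean above 0 and under 10, 23 (48.9%) were highest in that library, against 20.5% of 15865 named loci in the same range. At loci of annotated transcripts only, the summed level was 292 scaled counts in B6.Sle1b replicate 1, 59.2 and 85.3 in the other B6.Sle1b libraries, and 96.2, 125 and 105 in Sle1b.IFNγR-/-. At loci with an assembled transcript the same sums were 266, 159 and 183 against 180, 257 and 208, with replicate 1 about level with the highest receptor-deficient library.

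The excess of that library was larger in one part of chromosome 13 than in another. Nearly all Hist1 loci lie there in 2 blocks separated by more than 500000 bases: a first block of 24 loci (chr13:21715763-22043676) and a second of 32 loci (chr13:23531050-23934851, both GRCm38). The pseudogene Hist1h2al, at 0 in every library, lies apart from both (chr13:51202727-51203065). The 19 annotated-only loci of the first block summed to 183 scaled counts in B6.Sle1b replicate 1, to 14.0 and 24.4 in the other B6.Sle1b libraries, and to 31.5, 39.3 and 13.2 in Sle1b.IFNγR-/-. Replicate 1 was 4.66 times the highest other library there, and 2.48 times over all 24 loci of the block. The 25 annotated-only loci of the second block summed to 60.1, 29.6 and 29.1 against 35.0, 55.1 and 51.5, where replicate 1 was 1.09 times the highest other library. Over all 32 loci of the second block replicate 1 was 1.13 times the highest other library. Of the loci in the first block, with and without assembled transcripts, 17 of 24 were highest in replicate 1, and of the second block 8 of 32. Among annotated-only loci, the share of 50-base windows found in other members reached 93.9% in the first block (Hist1h3h) and 79.7% in the second (Hist1h2af). In the first block it was 82.8%, 86.4% and 90.1% at Hist1h2bl, Hist1h2bn and Hist1h2ai, and 24.6% at Hist1h4j. Position on the chromosome and this sharing between copies were not separated.

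Without B6.Sle1b replicate 1, the log2 difference between genotypes at the annotated-only loci was 0.44 for the first block and 0.64 for the second, against -0.64 and 0.30 with it. The sign for the first block thus rested on that library. The 6 annotated-only loci of the Hist2 cluster on chromosome 3 (cluster at chr3:96219865-96270132) summed to 12.2, 5.75 and 14.1 against 11.4, 7.87 and 7.19 and showed no such excess. The Hist3 cluster on chromosome 11 (chr11:58948920-58956830) held 2 annotated-only loci, both at 0.

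**Figure D4:**
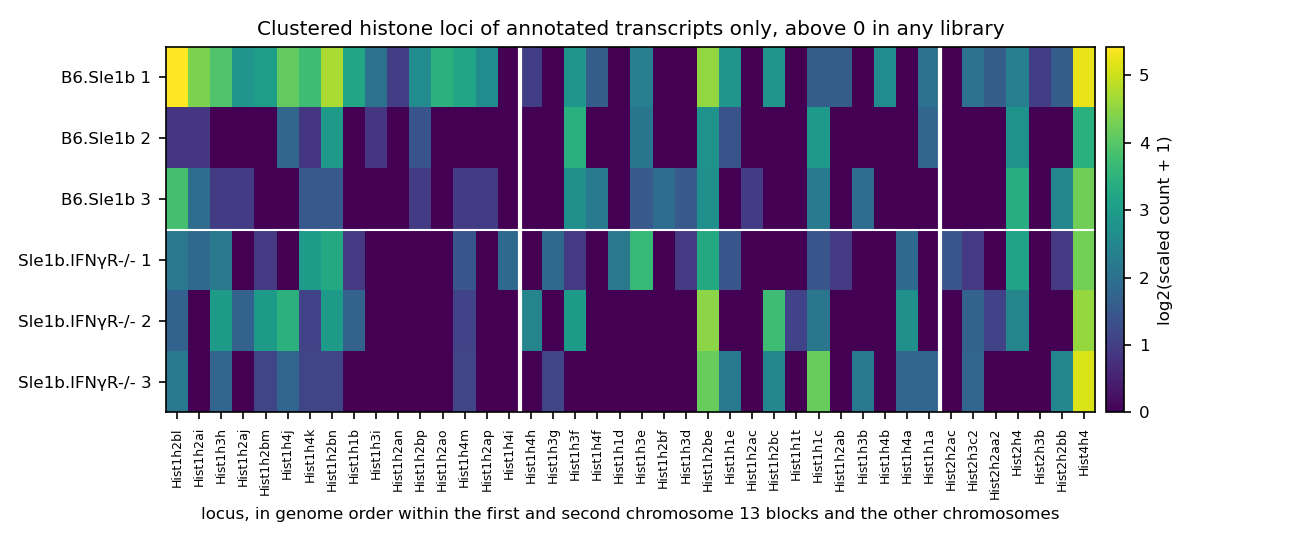
Log2(scaled count + 1), by colour, of each histone locus of annotated transcripts only that was above 0 in any library (columns, in genome order, white lines dividing the first chromosome 13 block, the second block and the other chromosomes) in each library (rows). The top row, B6.Sle1b replicate 1, is bright over nearly all of the first block, led by Hist1h2bl at 41.8 and Hist1h2bn at 25.5 scaled counts, with little excess in the second block.

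Of the 19 annotated-only loci in the first block, 15 were highest in B6.Sle1b replicate 1 and 3 were at 0 in every library. The loci named here were chosen for their values in that library. It held 41.8 scaled counts at Hist1h2bl and 25.5 at Hist1h2bn, both H2B genes, 19.4 at the H2A gene Hist1h2ai and 14.3 at the H3 gene Hist1h3h. At the H4 genes Hist1h4j and Hist1h4k it held 16.3 and 12.2, and at Hist1h2ao 10.2, with 0 in the other 5 libraries. Hist1h4i, near the far end of the block, stood at 2.62 in Sle1b.IFNγR-/- replicate 1 and at 0 elsewhere.

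By family, the excess at annotated-only loci was largest for H2A. The 14 such H2A loci summed to 45.9 scaled counts in B6.Sle1b replicate 1, 0.822 and 5.62 in the other B6.Sle1b libraries and 5.25, 3.37 and 0 in Sle1b.IFNγR-/-, so that replicate 1 was 8.15 times the highest other library. In fragments these were 45, 1 and 6 against 6, 3 and 0, so the ratio rests on few fragments. Of the 45.9, Hist1h2ai gave 19.4 and Hist1h2ao 10.2, both in the first block. For H2B the ratio was 2.23 over 13 loci, for H4 1.73 over 11, for H3 1.57 over 10, and for H1 0.851 over 6. By the end of the annotated transcript, the 16 annotated-only loci whose transcript ended within 60 bases of the stem-loop had 5.36 scaled counts per kilobase in B6.Sle1b replicate 1, 0.206 and 1.53 in the other B6.Sle1b libraries, and 0.657, 1.69 and 0.7502 in Sle1b.IFNγR-/-. The 17 loci whose transcript ran on past it had 2.82, 1.42 and 1.56 against 1.95, 2.06 and 2.43. The 21 loci without a match had 15.9, 1.42 and 2.53 against 3.11, 4.76 and 2.54. In summed scaled counts, replicate 1 was 3.17, 1.16 and 3.34 times the highest other library in these 3 classes. The first class held 42, 2 and 13 fragments in B6.Sle1b against 6, 12 and 5 in Sle1b.IFNγR-/-, so its values rest on few fragments. Family, position on the chromosome, sharing of sequence between copies and the end of the annotated transcript were not separated in these comparisons.

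H2A and H2B genes of the Hist1 cluster are often arranged head to head around a shared upstream stretch, and 9 such pairs were found among members with a RefSeq promoter. In the pair at the start of the first block, Hist1h2bl on the minus strand and Hist1h2ai on the plus strand, both genes were highest in B6.Sle1b replicate 1 (41.8 and 19.4 scaled counts). Hist1h2ak and Hist1h2bn were likewise both highest in replicate 1, at 11.2 and 25.5. The same held for Hist1h2an and Hist1h2bp, making 3 of the 9 pairs. In 3 pairs the genes were highest in different libraries: Hist1h2bj had 48.9 and its partner Hist1h2ag 0 in replicate 1, Hist1h2bq was highest in B6.Sle1b replicate 3 at 21.6 and Hist1h2ao in replicate 1, and Hist1h2ba and Hist1h2aa also differed. The other pairs had 1 gene (1 pair) or both genes (2 pairs) at 0 throughout. The stretches between the start sites of 3 pairs, 2 with both genes high in replicate 1 and 1 with nearly all counts at one of its genes, are given from RefSeq on the plus strand (GRCm38.p6) with CCAAT boxes in capitals in either orientation (ATTGG on the opposite strand): chr13:21716184-21716411, chr13:21753913-21754075 and chr13:22042950-22043197.
Hist1h2bl–Hist1h2ai: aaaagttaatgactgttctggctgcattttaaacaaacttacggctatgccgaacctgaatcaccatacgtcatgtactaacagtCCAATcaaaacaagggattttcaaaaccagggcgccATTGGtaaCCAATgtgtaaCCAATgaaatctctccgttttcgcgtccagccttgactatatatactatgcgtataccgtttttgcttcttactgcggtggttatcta
Hist1h2ak–Hist1h2bn: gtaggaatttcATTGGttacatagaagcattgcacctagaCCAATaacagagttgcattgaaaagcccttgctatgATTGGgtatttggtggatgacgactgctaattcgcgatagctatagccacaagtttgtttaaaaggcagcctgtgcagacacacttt
Hist1h2ag–Hist1h2bj: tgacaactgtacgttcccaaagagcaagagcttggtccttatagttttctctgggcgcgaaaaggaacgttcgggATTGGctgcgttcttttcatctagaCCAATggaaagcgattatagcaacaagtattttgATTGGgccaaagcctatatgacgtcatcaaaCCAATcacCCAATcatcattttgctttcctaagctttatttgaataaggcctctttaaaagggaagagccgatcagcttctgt
The stretches held 4, 3 and 5 CCAAT boxes, and none held TATAAA or the octamer ATTTGCAT, on either strand. Of the 9 stretches, 9 held CCAAT, 3 held TATAAA and 3 held the octamer.

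In promoter windows from 250 bases before to 50 after the start site, available for 61 of 70 member symbols as 62 promoters, TATAAA was found in 35 (56.5%, against 13.6% of all 32851 RefSeq promoters), counting both strands. CCAAT was found in 53 (85.5% against 37.4%), in every promoter of H1, H2A, H2B and H3 members and in 3 of 12 promoters of H4 members. ATTTGCAT, the octamer bound by OCT1 and known from H2B promoters, was found in 14 (22.6% against 1.74%), in 7 of 17 of H2A and 7 of 17 of H2B. Divergent pairs share much of their windows, so that the H2A and H2B counts are not separate. A match is a description of the letters only.

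Other genes that act with the clustered histones were described from fixed lists. Of the histone variant genes outside the clusters, most of which are made through the cell cycle from polyadenylated mRNAs, 8 loci were tested, 6 negative and 2 positive, with a median log2 difference of -0.20, which became 0.05 without B6.Sle1b replicate 1. H2afz, named after its values were seen and the gene of H2A.Z, stood at 369, 11.5 and 76.9 scaled counts in B6.Sle1b against 48.1, 27.0 and 49.1 in Sle1b.IFNγR-/-. H3f3b, a gene of H3.3, stood at 85.6, 12.3 and 30.9 against 21.9, 20.2 and 15.6, and H2afv at 19.4, 26.3 and 19.7 against 24.5, 42.7 and 40.7. H2afz and H3f3b were highest in B6.Sle1b replicate 1, as the first Hist1 block was, and H2afv was not; H1f0 had the next smallest p in this list after H2afv and H3f3b, with 30.6 in that library and between 2.25 and 16.8 in the others.

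For transcription and processing of histone mRNA, 20 loci were tested, 13 negative and 7 positive, with a median of -0.11, which became 0.11 without B6.Sle1b replicate 1. Slbp stood at 45.9, 18.1 and 14.1 scaled counts in B6.Sle1b against 20.99, 16.9 and 35.9 in Sle1b.IFNγR-/-, and its log2 difference was 0.04. Npat stood at 82.5, 28.8 and 37.5 against 34.1, 31.5 and 41.9, a difference of -0.32. Both were highest in B6.Sle1b replicate 1 and overlapped between genotypes. The smallest p values in this list were those of Mir7036/Srrt and a second Srrt locus, which carry the gene of ARS2, a partner of the cap-binding complex, and of Ncbp1, the large subunit of that complex. At Mir7036/Srrt the groups did not overlap (102, 33.3 and 52.4 against 15.4, 22.4 and 23.3), with a log2 difference of -1.45, while the other Srrt locus had 1.04. As the loci divide 1 gene and point in opposite directions, they give no direction for it. Ncbp1 had a difference of 1.22.

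Histone chaperones, which carry histones to DNA, had 12 negative and 6 positive differences among 18 tested loci and a median of -0.16. The smallest p values were those of Cabin1, Chaf1a and Nap1l4, with log2 differences of -0.46, -0.70 and -0.41. For DNA replication genes the median was -0.19 over 32 tested loci, 25 negative and 7 positive. The helicase subunit gene Mcm5 had 128, 41.1 and 52.5 scaled counts against 34.1, 30.3 and 25.2, without overlap, and a log2 difference of -1.11. Mcm10 and Mcm6 followed with -0.56 and -0.61. For mitosis genes the median was -0.37 over 17 tested loci, 14 negative and 3 positive. Cdc20, an activator of the anaphase-promoting complex, stood at 37.7, 11.5 and 19.7 against 7.00, 5.62 and 0, without overlap. Kif11 and Tpx2 of the spindle had log2 differences of -0.98 and -0.74. None of the genes in these lists passed an adjusted p of 0.05 in limma, and the medians for chaperones, replication and mitosis were 0.31, 0.13 and 0.26 when B6.Sle1b replicate 1 was left out, so that their signs rested on that library.

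B6.Sle1b replicate 1 also stood apart in other gene groups. The summed level of replication genes was 1.98 times that of the highest other library, and of mitosis genes 2.94 times. For ribosomal protein genes it was 3.07 times and for erythroid precursor markers 3.45 times. These ratios are of scaled counts, not divided by the total at named loci. All 71 histone loci had 1.46 times, and all 24 loci of the first block 2.48 times. The annotated-only loci of that block had 4.66 times. This subset was added after the data were seen, and the other lists were not restricted in this way. Of 12 erythroid precursor markers 10 matched a locus, and these 10 were tested, 5 negative and 5 positive with a median of 0.05 (1.07 without B6.Sle1b replicate 1), with summed levels from 262 to 3205 in B6.Sle1b and from 662 to 929 in Sle1b.IFNγR-/-. The part of any of these in the histone values was not tested.

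**Figure D5:**
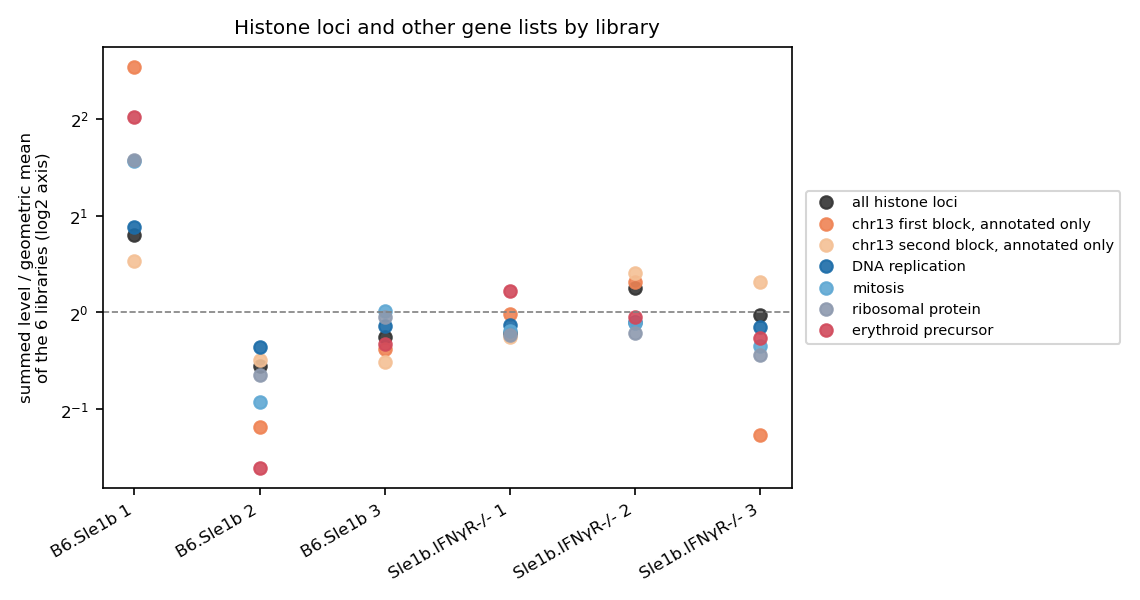
Summed level of each gene group in each library (horizontal axis) divided by the geometric mean of the 6 libraries (vertical log2 axis), for all histone loci, the annotated-only loci of both chromosome 13 blocks, and the replication, mitosis, ribosomal protein and erythroid precursor lists. In B6.Sle1b replicate 1 every group lies above 1. The annotated-only loci of the first chromosome 13 block are highest at 5.78 and those of the second block lowest at 1.45.

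The remaining facts concern the whole series. Lymphocyte markers of spleen were present: 5 of 5 B cell genes and 3 of 5 T cell genes were tested, with medians of -0.28 and -0.11 (0.14 and 0.02 without B6.Sle1b replicate 1), and with summed B cell levels of 365 to 1016 in B6.Sle1b against 483 to 533 in Sle1b.IFNγR-/-. Antibody-forming cell markers (5 of 8 tested, all 5 negative, median -1.26 and -0.54 without B6.Sle1b replicate 1, Tnfrsf17 at 0 throughout) summed to 198 to 994 against 161 to 189. Germinal centre B cell markers (5 of 6 tested, all 5 negative, median -0.67 and -0.46 without that library) summed to 134 to 255 against 80.9 to 119. Granulocyte precursor (3 of 7 tested) and red pulp macrophage markers (5 of 5) summed to 124 to 297 against 133 to 167, and 215 to 906 against 349 to 429. Their medians were -0.14 and 0.04 (0.02 and 0.65 without that library). Exocrine pancreas genes summed to 11.2 to 49.3 against 3.50 to 18.0. None of these genes passed an adjusted p of 0.05 in limma, and their part in the histone values was not tested. Ifngr1 stood at 81.5, 34.5 and 63.7 in B6.Sle1b against 43.7, 21.4 and 24.0 in Sle1b.IFNγR-/-, and Ifngr2 at 13.2, 12.3 and 7.50 against 5.25, 10.1 and 4.79. Both overlapped between the groups, and since the deleted part is not named, neither checks the genotype labels.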

How the data were processed

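Spleen RNA was extracted with TRIzol and made into cDNA with the Ovation RNA-seq System V2, per the labels' protocols. The submitters list TopHat2 2.0.9, Cufflinks 2.2.1 and CASAVA with the mouse build GRCm38, per the submitters' processing notes. The deposited signal is a fragment count per locus, scaled by the authors using library quartiles, per the file headers. About 99.8% of positive values were whole multiples of 1 step per library (within 0.01 of a step), which gave the fragment numbers. Since not all values were whole, no count test was used. The sources used here do not give the annotation release or the strand and multi-mapping settings. Overlapping and antisense genes therefore cannot be told apart. The 1530481 rows were collapsed to 1 per locus. Another 24 columns of per-sample values were not used.

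The 19227 named loci whose mean reached 10 were fitted with limma 3.58.1 in R 4.3.3 on log2(value + 1), two-sided, with genotype alone in the model and a trend on intensity, with Benjamini-Hochberg adjustment over all of them. Fold changes on this scale understate those of low loci. The procedure was tested on simulated data with independent normal noise at each locus. Those data held no shift of a whole library and no steps of single fragments, so the test does not cover these features. Summed levels and loci with lower means are descriptions. Members, lists and tests were chosen with earlier results of these data known. Named are, in each family, the 4 loci of highest mean, the 5 tested loci of smallest p in each direction, Slbp, Npat, Ifngr1, Ifngr2, and in the histone, replication and mitosis lists the 3 tested genes of smallest p. For the marker and ribosomal lists counts, medians or summed levels are given, and single genes of smallest p are not reported here. Other members were named after their values were seen. Transcripts and positions came from GENCODE mouse release 21 and promoters from RefSeq. Positions of 67 member loci were matched by transcript and of the others by name. Tables and figures were made in python 3.11.15 (numpy 2.4.6, pandas 2.3.3, matplotlib 3.10.9).

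Alternatives were other scalings (median-ratio, upper-quartile, total of named loci, ribosomal protein genes), a ribosomal covariate, a replicate block, no filter, a minimum mean of 50, pseudocounts of 0.5 and 10, robust limma, other sets of summed loci and leaving out each library. The sum over annotated-only loci was added after the data were seen.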

Additional observations from a re-analysis of the deposited data

How the results depend on the processing

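No histone member passed an adjusted p of 0.05 in limma under any alternative or without any library. Over all genes 0 passed (596 of 19227 at an unadjusted p under 0.05), 1 with scaling to the total of named loci, 7 with the ribosomal covariate, and 0 to 5 when 1 library was left out (5 without B6.Sle1b replicate 1 and 5 without replicate 2). The median log2 difference of the tested members, -0.05, turned to 0.029, 0.069, 0.092 and 0.57 with median-ratio, upper-quartile, total and ribosomal scaling (the median of all genes was then 0.55 under the last), 0.25 with the ribosomal covariate and 0.61 at a minimum mean of 50, where 1 member was left; without 1 library it ran from -0.14 to 0.17. The count of members with a negative difference, 6 of 12, became 3 with ribosomal scaling, 37 of 59 members without the filter and 0 of 1 at a mean of 50; without 1 library it ran from 4 to 7. The log2 difference of the summed level, 0.00, became 0.67 with ribosomal scaling, 0.42 with the ribosomal covariate, -0.10 without Hist3h2a/Trim17, -0.059 without loci of more than 1 gene name and -0.076 over annotated-only loci, and ran from -0.27 to 0.40 without 1 library. The causes were not tested. With a replicate block the count stayed at 0 and no call changed. The median of -0.05 and the summed difference of 0.00 could not change under it. Each replicate number occurs once in each genotype, so a block leaves every difference as it was. Replicate numbers did not pair the samples, as the correlations of same-numbered deviations were 0.01, -0.03 and -0.01. Depth was low, with 262 to 548 histone fragments per library.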
